A study of Mus musculus with 5 samples.

Results

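The C1q-positive macrophages of mouse bone marrow (BM) were examined in untreated mice and after 1 dose of cyclophosphamide (CTX), an alkylating drug that kills dividing cells. A cell was taken as a member when its droplet held at least 5 unique molecular identifiers (UMIs, each standing for 1 captured transcript) of C1qa, C1qb and C1qc together and fewer than 3 of Siglech, a gene of plasmacytoid dendritic cells. By this rule 165 of the 21520 cells kept from whole BM were members, 47 of 7104 in naive BM, 99 of 6126 on day 2 after CTX (D2 CTX) and 19 of 8290 on day 7 (D7 CTX). The mice were BALB/c, 4 to 8 weeks of age and of both sexes. The D2 CTX and D7 CTX mice had received 150 mg/kg CTX into the peritoneum, and the naive mice were left untreated. The labels describe CD45+ mononuclear cells. Marrow was flushed from tibia and femur, red cells were lysed, dead cells were removed and equal cell numbers from 3 mice were mixed, so that each condition is 1 library with no replicate. Animals therefore cannot be separated, no test between conditions was possible, and every interval below is a 95% interval of counting error alone. The naive, D2 CTX and D7 CTX libraries held 7649, 6608 and 8605 barcodes with 47086837, 34764874 and 68459527 UMIs.

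Macrophages of the marrow sit at the centre of erythroblastic islands, engulf the nuclei expelled by maturing red cells, digest worn-out cells and return their iron to plasma. C1q, the recognition protein of the classical complement pathway, is built from 3 chains that such macrophages make themselves, and it binds dying cells ahead of engulfment. The adhesion molecule VCAM-1 tethers erythroblasts and blood progenitors to the macrophage surface, while haem oxygenase 1 (Hmox1) opens the haem ring and ferroportin (Slc40a1) exports the freed iron.

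The start regions of C1qb and C1qc are shown because the members were chosen by these genes. C1qa, the other C1q gene of the rule, had no entry in the promoter set used and is not shown. Each sequence is the 250 bases before the RefSeq start, read 5′ to 3′ on the minus strand (build GRCm38.p6), at chr4:136886201-136886450 for C1qb and chr4:136892915-136893164 for C1qc. Capitals mark matches to AGGAAGT, the core of sites bound by PU.1-family factors (other strand ACTTCCT), and to TCATGTG, the M-box read by MITF-family factors (other strand CACATGA). The motifs do not overlap and were picked after the expression values were seen.
C1qb: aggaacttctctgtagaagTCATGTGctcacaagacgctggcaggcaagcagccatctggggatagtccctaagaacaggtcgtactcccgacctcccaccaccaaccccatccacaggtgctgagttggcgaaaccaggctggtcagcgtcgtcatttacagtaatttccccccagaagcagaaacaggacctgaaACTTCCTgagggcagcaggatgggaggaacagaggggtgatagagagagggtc
C1qc: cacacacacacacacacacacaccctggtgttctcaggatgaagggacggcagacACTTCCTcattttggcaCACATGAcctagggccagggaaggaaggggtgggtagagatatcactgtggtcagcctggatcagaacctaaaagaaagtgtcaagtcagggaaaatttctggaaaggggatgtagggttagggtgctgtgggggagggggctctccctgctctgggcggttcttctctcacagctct
ACTTCCT began 53 bases before the start of C1qb and 195 before that of C1qc. The M-box match began 231 and 178 bases before the same starts. Of 32851 promoters of this length, 7.69% held the first motif on either strand, 3.25% the M-box and 0.292% both. Spic, the gene of a PU.1-related factor needed by iron-recycling macrophages, held ACTTCCT 48 bases before its start (window chr10:88683024-88683273, minus strand). A match is a run of letters in a window and says nothing of binding.

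Most members were small droplets rich in C1q transcripts, and a few were deep droplets in which C1q was a minor part. With a minimum of 5 C1q UMIs a small droplet has a high C1q share by the rule itself, so this is a description of the choice. The median member held 1084, 1218 and 1020 UMIs in naive BM, on day 2 and on day 7, against 3953.5, 3033.5 and 7189.5 over all kept cells. Their mitochondrial share was higher than that of all kept cells in every library, with medians of 7.21%, 7.25% and 4.90% against 3.03%, 3.74% and 0.970%. The 10 deepest members nevertheless held 67.6%, 52.8% and 89.2% of the members' UMIs, so a summed level describes mainly those droplets. The members were for this reason also described in 3 ranges set after their values were seen. A C1q-rich cell had at least 0.3% of its UMIs from C1q and fewer than 3 Ccr2 UMIs (37, 73 and 15 cells). A Ccr2-positive cell had 3 or more Ccr2 UMIs (0, 7 and 1 cells). The remaining 10, 19 and 3 cells were deep and had a low C1q share, with median depths of 6082.5, 4417 and 5877 UMIs. These are ranges of a score and not cell types, and 3, 9 and 1 members had a C1q share between 0.2% and 0.4%, near the limit. In the deep range, 6 of 10, 10 of 19 and 3 of 3 cells took at least 10% of their UMIs from 5 neutrophil genes (S100a8, S100a9, Ngp, Camp and Ltf).

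**Figure D1:**
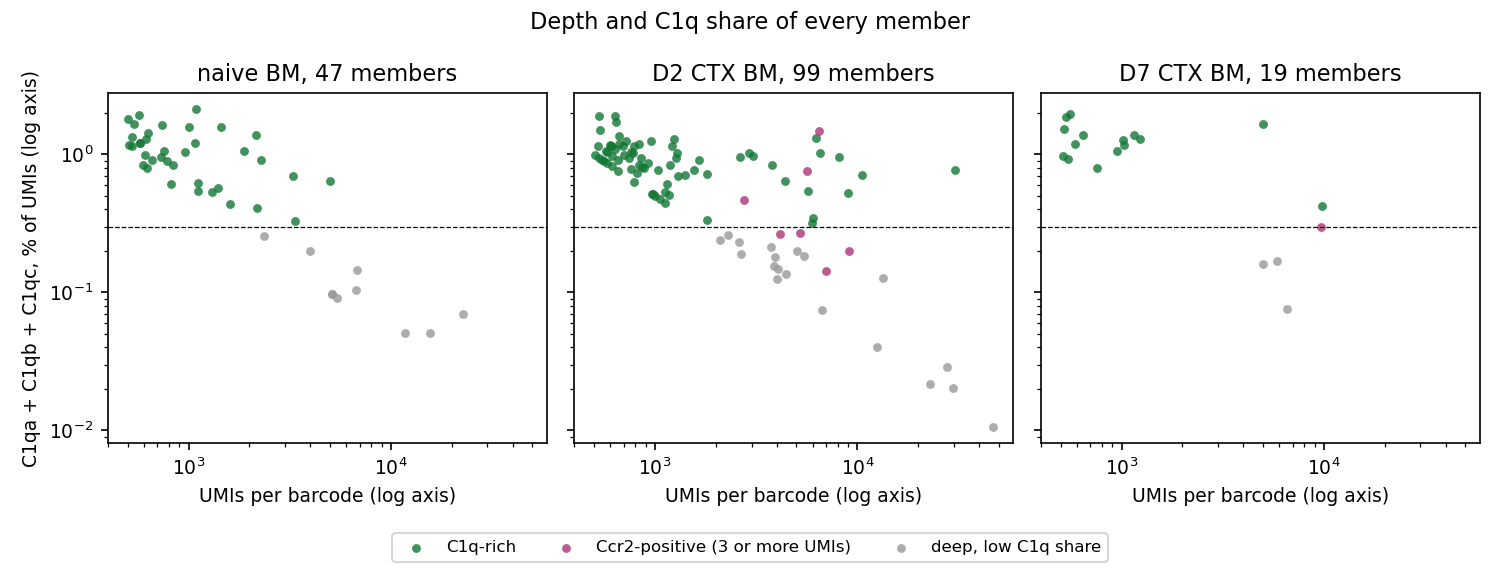
Each point is 1 C1q-positive member, with its UMIs on the x axis (log) and the percent of them from C1qa, C1qb and C1qc on the y axis (log), in naive, D2 CTX and D7 CTX BM. The dashed line is the 0.3% limit. The C1q-rich cells lie above it, most of them small but some deep, up to 30236 UMIs in D2 CTX BM. Some Ccr2-positive cells lie above it too. The grey cells with a low share have over 2000 UMIs each.

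The limit of 5 C1q UMIs falls in a gradual tail. Cells with exactly 4 numbered 10, 25 and 2 in the naive, day 2 and day 7 libraries, and cells with exactly 5 numbered 6, 20 and 3. Vcam1 was seen in 10, 23 and 1 of the cells just outside the limit and in 4, 15 and 1 of those just inside it. Vcam1-bearing cells thus lie on both sides. Other cells hold at most 4 C1q UMIs by the rule, apart from 1 naive and 2 D2 CTX cells that had 3 or more Siglech UMIs. Among the remaining B lineage cells 1.13%, 1.86% and 0.833% held any C1q UMI, at median depths of 2952, 2618.5 and 8762 UMIs.

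In the C1q-rich range the macrophage label matched several genes that the rule had not used. All 21 genes of a marrow macrophage list outside C1q had UMIs there in naive and D2 CTX BM, and all but Marco, a scavenger receptor, on day 7. A single UMI sufficed for this count, and neutrophil genes were seen in these cells too, as given below. Marco and Vsig4 were each in 1 of 37 naive cells and Siglec1 in 2. Vcam1 (chr3:116109949-116129688, minus strand) was present in 32 of 37, 68 of 73 and 13 of 15 C1q-rich cells. After every cell was thinned to 500 UMIs, Vcam1 was detected in 73.0%, 87.7% and 86.7% of them. The same share in Ly6c2-high monocytes was 0.277%, 0% and 0%, and in B lineage cells 0.235%, 0.164% and 1.25%, so the C1q-rich cells lay far above both. Among genes with at least 100 UMIs over the C1q-rich cells, those furthest above both monocytes and B lineage cells included Ccr3, Fcna, Vcam1, Cd5l, Spic, Axl, Mertk, Mrc1, Slc40a1, Itgad, Cd163 and Igf1. Several are at or near 0 in the comparison cells, where the 1 CPM added sets the ratio, so no order is drawn. Fcna encodes a ficolin of the lectin complement pathway, Cd5l a scavenger protein of tissue macrophages, Axl and Mertk receptors for dying cells, and Cd163 the receptor for haptoglobin-bound haemoglobin. The 15 monocyte markers together had 33, 83 and 30 UMIs (733, 528 and 1211 CPM, that is, scaled by the cells' total UMIs) in 20 of 37, 28 of 73 and 9 of 15 C1q-rich cells. Csf1r, which macrophages also express, led in every library with 16, 30 and 9 UMIs, and Plac8 had 12, 12 and 6. F13a1, Fn1, S100a4, Cx3cr1 and Vcan were at 0 in all 3 libraries, as was Ccr2, which the range limits. As the cells were chosen by expression, this is a description with no test.

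**Figure D2:**
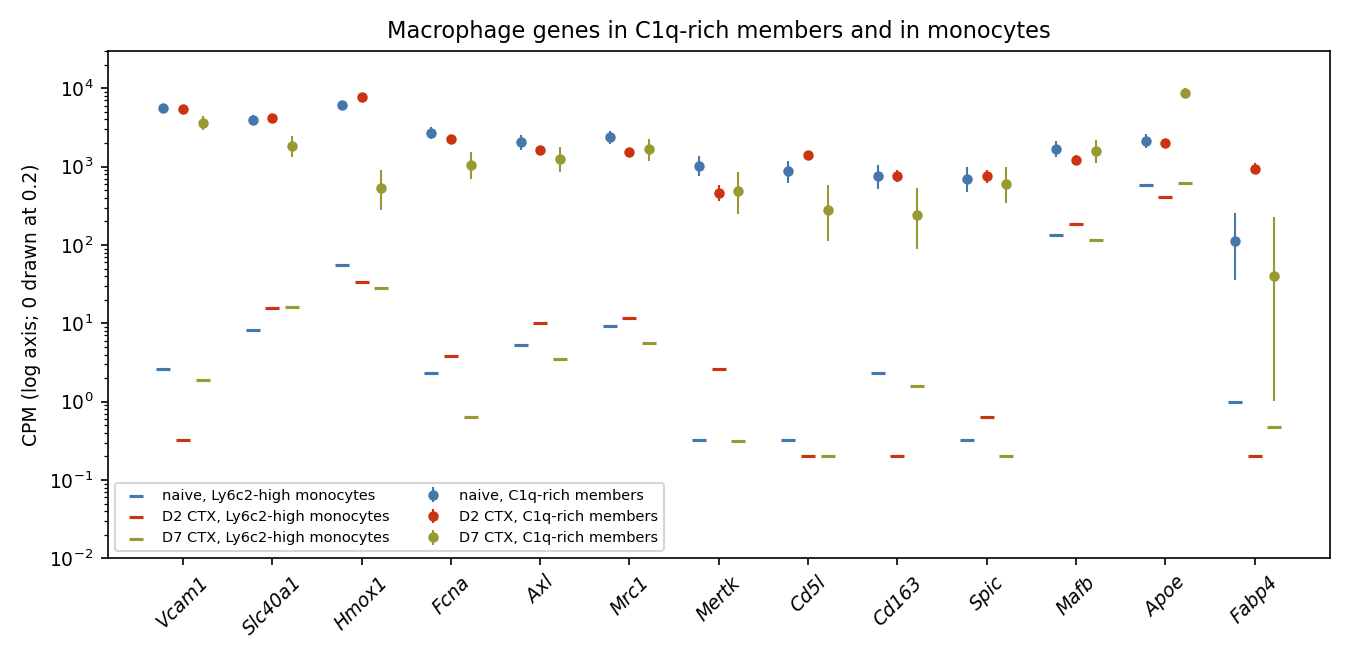
Circles give CPM (UMIs of a gene as a share of all UMIs of the same cells, scaled to 1 common total; log axis) summed over C1q-rich members, with exact 95% Poisson intervals, and dashes give the level in Ly6c2-high monocytes of the same library. In C1q-rich cells Vcam1, Slc40a1 and Fcna lie above 1000 CPM in every library, while Hmox1 falls to 525 CPM and Apoe reaches 8718 CPM in D7 CTX BM.

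The share of C1q-positive cells was higher in D2 CTX than in naive BM and lower in D7 CTX BM. It was 0.662% (95% interval 0.487 to 0.879) of kept naive cells, 1.62% (1.32 to 1.96) of those on day 2 and 0.229% (0.138 to 0.358) of those on day 7. On the log2 scale the D2 CTX share was 1.29 above naive (0.77 to 1.82) and the D7 CTX share had a ratio of -1.53 (-2.38 to -0.73). C1q-rich cells alone were 0.521%, 1.19% and 0.181% of kept cells. C1q UMIs over all kept cells were at 15.2, 57.6 and 5.46 CPM, but 70.0%, 81.7% and 81.9% of them lie in the members, so they are no separate support. A share depends on the other cells of the marrow, so more macrophages and fewer other cells cannot be told apart.

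On day 2 the summed level of the haem and iron genes in the C1q-rich cells differed from naive by less than counting error. Hmox1 (chr8:75093621-75100589, plus strand) was at 6018, 7808 and 525 CPM in naive BM, on day 2 and on day 7, Slc40a1 (chr1:45908068-45926523, minus strand) at 3909, 4123 and 1816 CPM, and Vcam1 at 5574, 5466 and 3633 CPM. The D2 CTX values of Vcam1 and Slc40a1 overlapped the naive ones within counting error, while Hmox1 was 0.38 higher on the log2 scale (0.18 to 0.57). Spread between cells was wide, and across naive C1q-rich cells Hmox1 ran from 0 through a median of 5964 to 14049 CPM. In D2 CTX cells it ran from 0 through 8202 to 26882 CPM. The ranges overlapped, although the highest D2 CTX value lay above the highest naive one. The median cell had 2554 and 4021 CPM of Slc40a1, and 4756 and 4167 CPM of Vcam1. Of 26 genes for haem and iron handling, 9 passed the filter of at least 100 UMIs over both libraries and at least 50 CPM in 1, and none was 1 log2 unit or more apart. Over all 251 genes past the filter 4.38% were higher and 1.99% lower, so that of 9 genes none called is near the background. Their median log2 ratio was 0.03, beside -0.01 over all genes tested. Summed over the list the ratio was 0.06 (-0.01 to 0.13). Ftl1 and Fth1, the chains of the iron store ferritin, had log2 ratios of 0.03 and -0.06, and Spic 0.13. Of 37 lysosome genes, 14 passed the filter and none was 1 log2 unit apart, with a median of 0.10. Ctsd, a lysosomal protease, was at 3620 and 5167 CPM, a log2 ratio of 0.51 (0.27 to 0.77).

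Among the macrophage markers outside the rule, 13 of 21 passed the filter in C1q-rich cells on day 2. None was 1 log2 unit higher and 1 was lower, where the background was 4.38% of 251 genes higher and 1.99% lower. The lower one was Mertk, at 1022 and 465 CPM, a log2 ratio of -1.14 (-1.69 to -0.57), seen in 13 of 37 and 18 of 73 cells. Without the deepest cell of each library its ratio was -0.94, short of the limit. Mrc1, the mannose receptor, had a ratio of -0.61 (-0.95 to -0.27), Axl -0.33 (-0.68 to 0.03) and Fcna -0.27 (-0.58 to 0.03). Cd5l stood 0.69 higher (0.20 to 1.22), but 0.25 without the deepest cells. Siglec1, the sialic acid receptor CD169 of marrow macrophages, did not pass the filter, with 2 UMIs in 2 of 37 naive cells and 32 UMIs in 18 of 73 D2 CTX cells. The log2 ratio of those 34 UMIs was 2.17 with a wide interval (0.23 to 5.30).

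Other macrophage programs were read against the same background of 4.38% higher and 1.99% lower. Of 30 genes for engulfment of dying cells 4 passed the filter, of which Calr was higher and Mertk lower. Of 26 antioxidant genes 9 passed, of 36 macrophage transcription factors 4 and of 30 niche and adhesion factors 2. None of these 3 groups had a gene 1 log2 unit apart, and their medians were -0.06, 0.18 and -0.04. Of 24 early response genes, which also react to tissue dissociation, 3 passed and 1 was higher. This was Hspa8, a constitutive heat shock chaperone, at 466 and 967 CPM.

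DNA replication genes were higher in the C1q-rich cells on day 2 and mitosis genes differed less. The cell division list as a whole had 444 CPM in naive and 1629 CPM in D2 CTX cells, with a log2 ratio of 1.87 (1.22 to 2.61), and was seen in 14 of 37 naive and 47 of 73 D2 CTX cells. Without the deepest cells the ratio was 1.71. The list was then split by the stage in which its genes act, after its values were seen, and Stmn1, a microtubule regulator with 3 and 27 UMIs, was placed in neither group. The 8 replication genes together had 3 UMIs in 3 of 37 naive cells, 152 UMIs in 43 of 73 D2 CTX cells and 5 UMIs in 2 of 15 D7 CTX cells. Mcm2, Mcm3, Mcm5 and Mcm6, subunits of the helicase that opens the double helix, had 0, 1, 0 and 0 UMIs in naive and 18, 27, 27 and 26 in D2 CTX cells. Pcna, the sliding clamp of the polymerases, had 0 and 32 UMIs, and Tk1, a thymidine kinase, 0 and 18. Nearly all of these transcripts were thus on day 2. Tyms and Rrm2, which supply nucleotides, had 1 and 1 UMIs in naive and 0 and 4 in D2 CTX cells. None of the 30 genes of the list passed the filter alone. After thinning to 500 UMIs, 5.41% of naive (0.661 to 18.2) and 39.7% of D2 CTX (28.5 to 51.9) cells held a replication UMI. The log2 ratio was 3.86 (2.29 to 6.15), and 3.61 without the deepest cells. The 21 mitosis genes had 14 UMIs in 11 of 37 naive and 77 UMIs in 25 of 73 D2 CTX cells, a ratio of 0.66 (-0.18 to 1.59). After the same thinning, 16.2% of naive and 21.9% of D2 CTX cells held a mitosis UMI. For the whole list the shares were 27.0% (13.8 to 44.1) and 50.7% (38.7 to 62.6), with overlapping intervals. Mki67, a mark of cycling cells, had 0 and 4 UMIs, and Ccnb1, the cyclin of mitotic entry, 3 and 0.

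In other cell types of the same library mitosis UMIs outnumbered replication UMIs. D2 CTX C1q-rich cells had 152 and 77 UMIs, D2 CTX monocytes 2417 and 11459, and D2 CTX B lineage cells 3531 and 12209. The replication genes stood at 967 CPM in C1q-rich cells, 782 CPM in monocytes and 402 CPM in B lineage cells. In naive BM the order was the reverse, at 66.6, 692 and 1161 CPM. Over all members, deep cells included, the replication genes had 848 CPM in naive and 820 CPM in D2 CTX BM, and 66.7% of the naive UMIs came from 1 cell. Over all members the cell division list had a log2 ratio of -0.57 (-0.72 to -0.42), opposite in sign to the C1q-rich range. Ccnd2, a G1 cyclin, had 289 and 611 CPM in C1q-rich cells and 7.54 and 57.9 CPM in monocytes of naive and D2 CTX BM. Tubb5, a tubulin, had 5 UMIs in 5 naive and 98 UMIs in 36 D2 CTX C1q-rich cells. Both were picked after their values were seen.

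**Figure D3:**
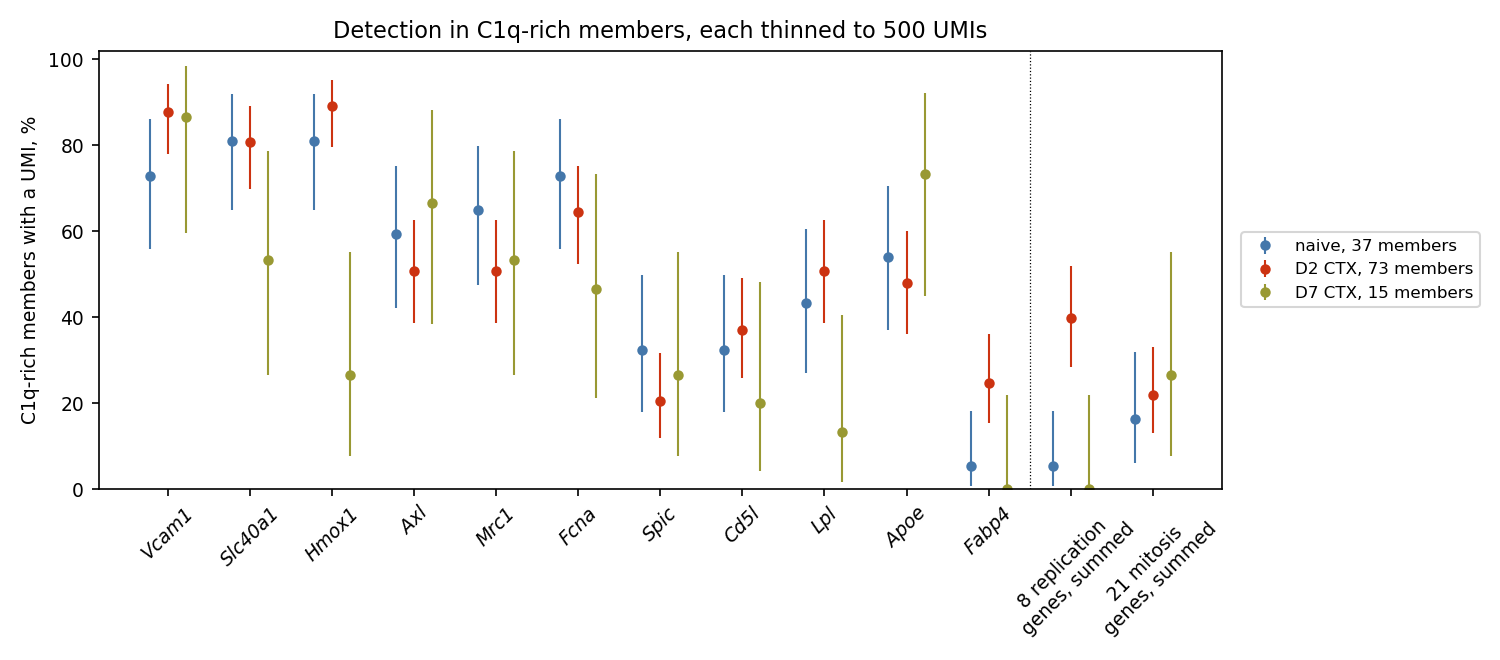
Percent of C1q-rich members with at least 1 UMI of each gene, or of each summed group right of the dotted line, after every cell was thinned to 500 UMIs, with exact Clopper-Pearson 95% intervals. The 8 replication genes are seen in 5.41% of naive and 39.7% of D2 CTX cells, and Hmox1 in 81.1% and 89.0% of the same cells and 26.7% of those on day 7.

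Fabp4, a carrier of fatty acids in macrophages and fat cells (chr3:10204088-10208576, minus strand), had the highest day 2 ratio of the 4 lipid genes past the filter in C1q-rich cells. It had 5 UMIs in 4 of 37 naive cells, 148 UMIs in 29 of 73 D2 CTX cells and 1 UMI in 1 of 15 D7 CTX cells. The log2 ratio on day 2 was 3.07 (1.83 to 4.73). 1 cell gave 44.6% of the D2 CTX UMIs, and without the deepest cells the ratio was 2.36. Monocytes had 3 Fabp4 UMIs in naive and 0 in D2 CTX BM. Lpl, lipoprotein lipase, was at 1221 and 2011 CPM, a ratio of 0.72 (0.30 to 1.16). Apoe, a carrier of lipids out of macrophages, was at 2110 and 2011 CPM, within counting error. The other 22 of 26 lipid genes did not pass the filter, and the median of the 4 was 0.40. Kitl, the stem cell factor of the niche, had 2 UMIs in 1 of 37 naive cells and 26 in 17 of 73 D2 CTX cells, with an interval of its log2 ratio from -0.10 to 5.02.

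Transcripts for antigen presentation by MHC class II had a lower summed level in C1q-rich cells on day 2, while detection at equal depth overlapped. Summed over 14 genes they had 6085 CPM in naive and 2895 CPM in D2 CTX cells (log2 ratio -1.07, interval -1.29 to -0.85), and stood at 4319 CPM on day 7. H2-Aa had 844, 216 and 444 CPM in the 3 conditions, and the day 2 ratio was -1.96 (-2.68 to -1.26). H2-Ab1 and H2-Eb1 had ratios of -1.75 and -2.21, and Cd74, the invariant chain, -0.98 (-1.33 to -0.62). Only Cd74 and Ctss passed the filter. Over all members, which include the Ccr2-positive and the deep cells, the sign was opposite, at 0.53 (0.39 to 0.67). 1 naive cell, not the deepest, gave 24.8% of the list's UMIs. Without the cell that gave most in each library the ratio in C1q-rich cells was -0.73 (-0.98 to -0.48), and without the deepest cells -0.97. B lineage markers other than immunoglobulins also had a lower sum in D2 CTX C1q-rich cells, 1928 against 4664 CPM, and Cd74 is on both lists. Their part in the result was not tested.

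Targets of p53, which respond to DNA damage, were higher on day 2 in monocytes, while in C1q-rich cells the interval took in 0. Over 29 genes they had 688 CPM in naive and 897 CPM in D2 CTX cells, and their log2 ratio was 0.38 (-0.19 to 0.99), or 0.24 without the deepest cells. In Ly6c2-high monocytes the same genes had 805 and 2038 CPM, a ratio of 1.34 (1.27 to 1.41). In B lineage cells the ratio was 0.74 (0.71 to 0.78), inside the interval of the C1q-rich cells, and over all members it was 0.91 (0.57 to 1.27). The C1q-rich interval thus overlaps those of B lineage cells and of all members and lies below that of monocytes. Ccng1, a p53 target, had 4 and 19 UMIs in C1q-rich cells, a ratio of 0.44 (-1.14 to 2.46), against 3.03 in monocytes. Cdkn1a, the p53-induced brake on the cell cycle, had 0 and 4 UMIs. No p53 target passed the filter in the C1q-rich cells, so depth limits what can be said of each gene. Interferon-stimulated genes had a ratio of 0.20 (-0.16 to 0.57) and chemokines -0.22 (-0.86 to 0.47), neither apart from 0 beyond counting error. Other sums were. Lipid and cholesterol handling genes had a ratio of 0.38 (0.19 to 0.58), and 0.33 (0.12 to 0.55) without the cell that gave most in each library. It was 0.18 (-0.03 to 0.39) without the deepest cells. Lysosome genes were at 0.15 (0.07 to 0.24), and at 0.10 without them. Macrophage transcription factors were at 0.22 (0.03 to 0.41), and at 0.43 without them. NF-kB and inflammatory genes were at 0.25 (-0.18 to 0.70), but at 0.67 (0.17 to 1.21) without the deepest cells, and early response genes at -0.08 and then 0.29 (0.06 to 0.52). Anti-inflammatory and tissue repair genes had a ratio of -0.35 (-0.56 to -0.14), and -0.33 (-0.56 to -0.11) without the deepest cells. Without the cell that gave most in each library, their ratio was -0.20 (-0.43 to 0.03). The ratio was -0.25 (-0.44 to -0.07) for Fc, scavenger and pattern receptors, and -0.29 without the deepest cells. Complement genes other than C1q were at 0.53 (0.08 to 1.01) and engulfment genes at -0.25 (-0.45 to -0.05), but without the deepest cells at 0.44 (-0.03 to 0.95) and -0.17 (-0.39 to 0.06), where both intervals take in 0. Without the cell that gave most in each library, complement genes were at 0.61 (0.13 to 1.13), above 0.

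**Figure D4:**
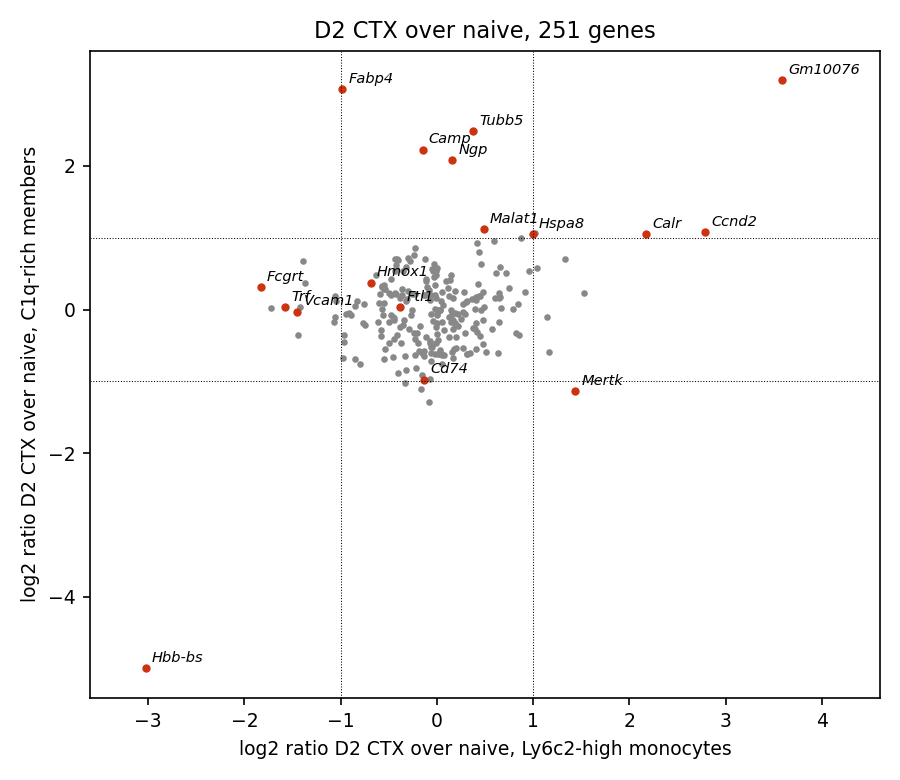
Log2 ratio of D2 CTX over naive in C1q-rich members (y axis) against that in Ly6c2-high monocytes (x axis) for 251 genes, with dotted lines at 1 and -1. Gm10076, Calr and Ccnd2 are high on both axes, Hbb-bs is low on both, and Fabp4 is at 3.07 in C1q-rich cells. Its place on the x axis rests on 3 and 0 UMIs and is set by the 1 CPM added.

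Over all members, 667 genes passed the filter on day 2, of which 58 (8.7%) were at least 1 log2 unit higher and 15 (2.25%) lower than naive. The median of all these genes was 0.27, so single ratios over all members should be read against it. Both counts moved much under another scaling, and the count of higher genes under other choices of members, as given in the last section. In the C1q-rich cells the median was -0.01, with 11 genes (4.38%) higher and 5 (1.99%) lower, and in monocytes 4.43% and 2.68% of 3249 genes were. Of the 58 genes, 23 were also 1 unit higher by the mean of the cells' own CPM, and in 15 of these no D2 CTX cell gave over 25% of the gene's UMIs. The limit was set on the higher library alone, and in naive BM 1 cell gave 87.5% of the Mmp8 UMIs, 61.5% of those of Ifi27l2a and 54.5% of those of Retnlg. The first 12 were Gm10076, Ifi27l2a, Mmp8, Ctsc, Retnlg, Ms4a7, S100a6, Efhd2, Calr, Tpm3-rs7, Arf1 and Rpn1. None of the 15 lower genes met the same rule. In the C1q-rich cells Gm10076, Mmp8, Tpm3-rs7, Efhd2, Ms4a7 and Calr were also at least 1 log2 unit higher. Of these only Gm10076 and Calr passed the filter there, and the rest of the 12 were below 1 unit. Ctsc, which activates granule proteases, had a ratio of -0.14 (-1.52 to 1.47) there against 1.66 over all members. On 6 naive UMIs, this ratio was 0.74 without the deepest cells and 1.20 by the mean of the cells' CPM. Ifi27l2a, an interferon-induced gene, had 0.51 (-1.06 to 2.53) in C1q-rich cells against 2.18 over all members. Gm10076, a non-coding transcript, had 6 UMIs in 5 naive and 230 in 60 D2 CTX members, and in monocytes it had 71.8 and 871 CPM. Calr, the endoplasmic reticulum chaperone calreticulin, which also marks dying cells for engulfment, was at 311 and 643 CPM in C1q-rich cells (1.05, 0.23 to 1.97) and at 222 and 1001 CPM in monocytes. Mmp8 and Retnlg are neutrophil genes, and Retnlg was at 2221 and 2246 CPM in naive and D2 CTX C1q-rich cells. Mmp8 had 2 and 50 UMIs in the same cells, a ratio of 2.81 (0.91 to 5.93), with 42% of the D2 CTX UMIs from 1 cell. Rpn1, of the machinery that glycosylates new proteins, was at 244 and 452 CPM there, and Arf1, of Golgi transport, at 289 and 490 CPM.

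The 7 Ccr2-positive cells of D2 CTX BM were deep, at 2765 to 9042 UMIs, and held no Vcam1 or Slc40a1. Vcam1, Slc40a1, Fcna and Cd5l had 0 UMIs in all 7, where C1q-rich cells of the same library had 859, 648, 352 and 220. Hmox1 had 4 UMIs in 3 of them, and the ferritin genes Ftl1 and Fth1 had 238 and 236 UMIs. C1q, by which they were chosen, had 10 to 95 UMIs a cell. Ccr2, the chemokine receptor of classical monocytes, had 3 to 20 UMIs a cell and Cx3cr1, the fractalkine receptor, 1 to 7. Cd74 ranged from 7 to 147 UMIs a cell and reached 13698 CPM summed, against 1196 CPM in C1q-rich cells and 204 CPM in monocytes. H2-Aa, H2-Ab1 and H2-Eb1 stood at 6389, 5245 and 5270 CPM. Apoe was at 10491, Ms4a7 at 920 and Ms4a6c at 1293 CPM, and Axl at 398 against 1629 CPM in C1q-rich cells. With Vcam1 at 0, these 7 cells go against the marker set of the rest and are described by their genes only. They were 0.114% (0.0460 to 0.235) of kept D2 CTX cells. In naive BM there were 0 of 7104, which allows a share of up to 0.0422% at a floor of 3 cells and 0.0519% by the exact interval used above. This contrast depends on the limit of 3 Ccr2 UMIs. Below it, 1 naive cell had 1 Ccr2, 86 Cd74, 59 H2-Aa and 38 Apoe UMIs with 1 of Vcam1, 0 of Slc40a1 and 12 of Hmox1. A D2 CTX cell below it had 1 Ccr2, 79 Cd74, 39 H2-Aa and 27 Apoe UMIs with 0 of Vcam1 and Slc40a1 and 9 of Hmox1. Cells like the 7 in Cd74, H2-Aa and Apoe, but with more Hmox1, thus occur just under the limit in both libraries. The 1 such cell of D7 CTX BM did hold Vcam1 and Slc40a1, with 38 and 28 UMIs. The cells were set apart by Ccr2, so that gene's level is not a result.

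**Figure D5:**
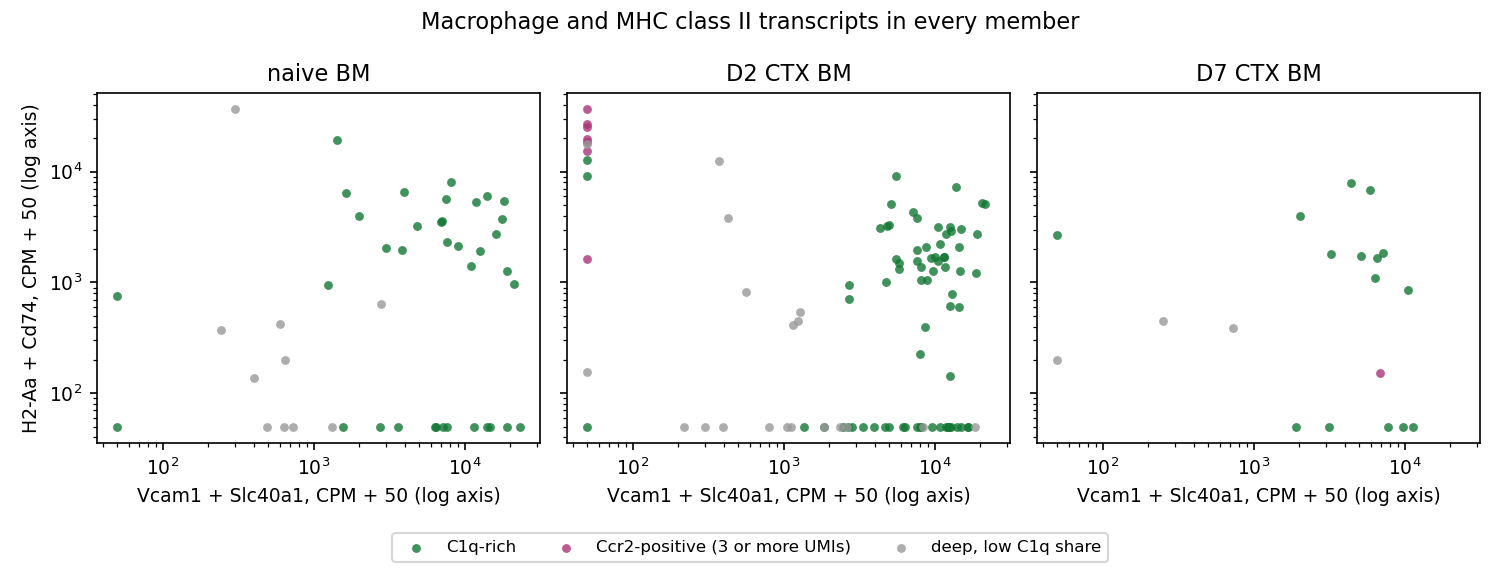
Each point is 1 C1q-positive member of naive, D2 CTX or D7 CTX BM, with Vcam1 plus Slc40a1 on the x axis and H2-Aa plus Cd74 on the y axis (CPM plus 50, log axes). The 7 Ccr2-positive cells of D2 CTX BM lie at 0 on the x axis, where the C1q-rich cells mostly reach 1000 CPM or more.

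Day 7 rests on 19 members, 15 of them C1q-rich, and only 191 genes passed the filter over all members. Of these 16 (8.38%) were at least 1 log2 unit higher and 19 (9.95%) lower than naive, around a median of -0.18. Among the C1q-rich cells 6 of 76 genes (7.89%) were higher and 6 (7.89%) lower, and in monocytes 0.716% and 0.478% of 2931. By the rule on the spread between cells Ubb, a ubiquitin gene, was the 1 gene named as higher, and Hmox1 and Rpl12, a ribosomal protein gene, were named as lower. Hmox1 had a log2 ratio of -2.33 over all members. Among C1q-rich cells it was seen in 6 of 15, against 32 of 37 in naive BM, and its ratio was -3.52 (-4.45 to -2.72), or -2.90 without the deepest cell of each library. After thinning to 500 UMIs it was detected in 26.7% of day 7 cells (7.79 to 55.1) and 81.1% of naive cells (64.8 to 92.0), so Hmox1 was seen less often at equal depth. Slc40a1 had a ratio of -1.11 (-1.61 to -0.63), which was -0.80 without the deepest cells. Vcam1 had one of -0.62 (-0.98 to -0.26), and -0.04 without them, where the deepest day 7 cell holds 9739 of the 24775 UMIs. The size of the Vcam1 ratio thus depends on single cells, and another day 7 cell gave 42 of its UMIs. In the median cell Vcam1 was at 3469 CPM on day 7 and 4756 CPM in naive BM. Summed over the haem and iron list the ratio was -0.55, and -0.21 without the deepest cells. Of the macrophage markers 7 passed the filter, of which 3 (Fcna, Sdc3 and Hmox1) were lower and none higher, with a median of -0.71. Their sum outside the rule had a ratio of -0.88 (-1.05 to -0.72), and -0.43 (-0.62 to -0.24) without the deepest cells. It was -1.15 (-1.36 to -0.95) without the cell that gave most of these UMIs in each library. After thinning, Vcam1 was seen in 86.7% of these cells on day 7 against 73.0% in naive BM and Axl in 66.7% against 59.5%, with overlapping intervals. Apoe was higher, at 8718 against 2110 CPM in naive cells, a ratio of 2.05 (1.69 to 2.41), although 60.2% of its UMIs came from 1 cell. After thinning, Apoe was seen in 73.3% (44.9 to 92.2) of day 7 and 54.1% (36.9 to 70.5) of naive cells, with overlapping intervals. The Apoe level of the single C1q-rich cells had a median of 1675 CPM and a highest value of 6349 CPM in naive BM, and on day 7 a median of 6336 CPM and a highest value of 26068 CPM. The median day 7 cell was thus near the highest naive one.

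RNA of other cell types was present in the C1q-rich cells and shifted between libraries. Neutrophil markers had 19765, 32052 and 101594 CPM in naive BM, on day 2 and on day 7, with S100a9, S100a8 and S100a9 the most abundant. 1 cell gave 50.6%, 41.0% and 91.9% of these UMIs. The day 7 ratio to naive turned from 2.36 (2.25 to 2.47) to -0.71 (-0.94 to -0.49) without the deepest cells, so the high day 7 level is that of 1 cell. Without the cell that gave most of these UMIs in each library it was 0.42 (0.17 to 0.66), and the day 2 ratio, 0.70 over all C1q-rich cells, was 0.96 (0.82 to 1.11). All 16 neutrophil genes had UMIs in D2 CTX and D7 CTX cells and 15 of 16 in naive cells, where Ltf was at 0. Camp and Ngp, granule genes that were 1 log2 unit higher on day 2, came to 87.8% and 74.3% from 1 cell. Erythroid markers had 9594, 923 and 686 CPM, with 13, 11 and 4 of 19 genes seen. Hbb-bs, a globin chain, led in naive cells at 3886 CPM, of which 89.7% came from 1 cell, and Blvrb led in both CTX libraries. Blvrb is also on the haem and iron list, so it is no mark of erythroid RNA alone. Monocytes had 5117 and 602 CPM of the same markers in naive and D2 CTX BM. Stromal genes other than Kitl had few UMIs, and Lepr, Col1a1 and Col1a2 were at 0 in D2 CTX cells. T and NK genes had 3, 18 and 1 UMIs. 1 naive cell, not the deepest, gave 80.3% of the erythroid UMIs. The day 2 ratio of that list was -3.38, and -1.03 (-1.44 to -0.61) without the cell that gave most of these UMIs in each library. That of the B lineage list was -1.27, and -1.13 (-1.45 to -0.81) in the same way. Leaving out members with RNA of other lineages gave fewer higher genes on day 2 and day 7, as given in the last section. How far this RNA sets each single result was not tested.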

How the data were processed

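Whole-marrow cells from the 3 conditions were profiled with 10x 3′ v3 chemistry. The authors deposited UMI counts per gene and barcode. Per the file headers Cell Ranger 3.1.0 made them, and the submitters' processing notes name Cell Ranger 3.1, Seurat 5.0 and mm10. The matrices hold fewer barcodes than the cells the study states. Cells with at least 200 genes and under 20% mitochondrial UMIs were kept. Members and gene lists were chosen with earlier results of these data known. UMIs were summed per library, divided by the library's total over the same cells (CPM) and compared as log2 ratios with 1 CPM added. Genes needed 100 UMIs over both libraries and 50 CPM in 1, and a gene was called when 1 log2 unit apart. Genes of the selection rule, mitochondrial, immunoglobulin, Xist and chromosome Y genes were listed apart. Share intervals are Clopper-Pearson, CPM intervals Poisson and ratio intervals conditional binomial, all exact. Ratios of summed lists have no CPM added. B lineage cells had 3 Cd79a and Cd79b UMIs, and Ly6c2-high monocytes 3 Ly6c2 and 1 Csf1r UMIs.

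Named genes were those of the macrophage list, the 12 highest and 12 lowest day 2 genes (5 and 5 on day 7) called also by the mean of the cells' CPM with no cell over 25% of the UMIs in the higher library, and the leading genes of each list. Genes of the C1q-rich and Ccr2-positive cells outside this rule were chosen after their values were seen. Doublets were called with Scrublet in scanpy 1.11.5 (194, 223 and 0 cells in naive, D2 CTX and D7 CTX BM, 1, 1 and 0 of them members), which made no calls in D7 CTX BM and did not work there. Doublets were kept, and removed as an alternative. Library pairs shared 2 to 16 barcodes and no member barcode. Gene positions are from GENCODE on GRCm38 and promoters from RefSeq. Python 3.11.15, numpy 2.4.6, scipy 1.17.1 and pandas 2.3.3 were used, and the code was tested on simulated data.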

Additional observations from a re-analysis of the deposited data

Results flagged for a closer look

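Vcam1, a gene of the C1q-rich cells, was also found in the sorted CD11b+Ly6Chi monocyte libraries, which take no part in the comparisons above. It had 2.86 CPM in the CTX library (82 UMIs in 23 of 2564 cells) and 0.135 CPM in the naive one (3 UMIs in 3 of 1891 cells). C1qa, C1qb and C1qc had 0 UMIs in both, which allows a share of cells with a UMI of up to 0.117% and 0.159% at a floor of 3 cells, and of 0.144% and 0.195% by the exact 95% interval.

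The day 2 ratio of Mertk was -1.14 in C1q-rich cells and 1.43 in Ly6c2-high monocytes, so that the directions are opposite. The monocyte value rests on 1 UMI in naive and 8 UMIs in D2 CTX BM, and the difference was not tested.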

How the results depend on the processing

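No paired analysis was possible because each condition is 1 library. Some alternatives were added after seeing the data: thinning to 500 UMIs, the C1q-rich range, a C1q share of at least 0.5%, leaving out the 5 deepest members of each library or the cell with most of a list's UMIs, and the mean of the C1q-rich cells' CPM. Directions of lists changed. In the C1q-rich range the day 2 sum of MHC class II genes was -1.07 against 0.53 over all members (medians -0.67 and 0.53), and that of cell division genes 1.87 against -0.57. The log2 share ratio of members stayed above 0 on day 2 and below 0 on day 7 in all 24 alternatives, and it moved in 2, to 1.87 on day 2 (cells thinned to 2000 UMIs, at least 2 C1q UMIs) and to -0.67 on day 7 (at least 10 C1q UMIs, interval -1.94 to 0.55). Gene counts depended much more on the choices. Without a filter 4302 genes were higher and 1456 lower on day 2, and 2428 and 3698 on day 7. Scaling by the median of gene ratios gave 36 and 27 on day 2. With at least 500 genes and under 10% mitochondrial UMIs 90 were higher on day 2. Leaving out members with RNA of other lineages gave 13 higher on day 2 and 8 on day 7, and keeping members with Vcam1 gave 34 higher on day 2. Subtracting the B lineage level gave 219 higher and 63 lower on day 2, and 30 higher on day 7. In the C1q-rich range 11 and 5 were called on day 2, and 6 and 6 on day 7. At a C1q share of 0.5% the counts were 7 and 2, then 2 and 7. Without the 5 deepest members they were 19 and 7, then 5 and 11. By the mean of the C1q-rich cells' CPM they were 10 and 7, then 3 and 5. The cause of each shift was not tested. Depth is a limit too, since 3 UMIs amount to 66.6 CPM in the naive C1q-rich cells, and ratios of genes below that level there, such as Siglec1 and Kitl, have wide intervals.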
